A study of Mus musculus with 6 samples.

Results

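Plasmacytoid dendritic cells (pDCs) were found among single cells sorted as CD4+ T cells from the spleen and from the vascular tissue of mice with an aneurysm of the abdominal aorta. A cell was taken as a pDC when it had no UMI (unique molecular identifier, 1 counted RNA molecule) of the T cell receptor gene Cd3e, at least 1 UMI of Siglech and at least 1 UMI of at least 2 of Klk1, Cox6a2, Ly6d, Irf8 and Pld4. This rule found 1284 pDCs among 41303 cells, 153 in 3 spleen libraries and 1131 in 3 vascular libraries. All 6 libraries came from C57/B6 mice treated with elastase (PPE in the labels) at 8 to 12 weeks of age and killed 14 days after surgery, so no group is an untreated control. The aortas were cut up and kept in an enzyme mix at 37 °C for 1 h. The spleens were ground without that step, so tissue of origin and digestion cannot be told apart in any comparison of vascular with spleen cells. Both suspensions went through a density gradient, and about 10000 cells per library entered a droplet instrument that reads the 5′ end of transcripts, with about 6000 as the target. The labels number the libraries 1 to 3 in each tissue but do not say that they came from separate mice, so each p-value below measures library-to-library spread alone, and that spread may be technical.

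Plasmacytoid dendritic cells are blood-borne immune cells that look like plasma cells and carry Toll-like receptors for viral RNA and DNA inside their endosomes. When these receptors are triggered, pDCs can release large amounts of type I interferon, and they can also mature into cells that present antigen on MHC class II. The transcription factors Tcf4, Irf8, Spib and Bcl11a set and hold their identity, and mouse pDCs carry the surface proteins Siglec-H and Bst2 and, on a part of the cells, Cd4.

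The cells were chosen by their measured UMIs of the 7 genes of the rule, so the values of these genes are given as a description with no test. Of the 1284 pDCs, 954 had all 5 of the 5 genes, 272 had 4, 47 had 3 and 11 had 2. Just outside the rule stood 9 cells with 1 of the 5 genes and 8 cells with 0, whose shares with a Tcf4 UMI were 66.7% and 25.0%. A further 373 cells met the rule except for a Cd3e UMI. These cells had a median of 12382 UMIs against 8127 in the pDCs, and 228 of them were called doublets. In the spleen libraries, the level of Siglech was 2565, 2969 and 2896 CPM (UMIs of the gene per 1000000 pDC UMIs of a library), and in the vascular libraries it was 2644, 2828 and 2715 CPM. Irf8 stood at 3885 ± 158 CPM in spleen and 2702 ± 129 CPM in vascular pDCs (mean ± SD, n = 3 here and below), and Ly6d at 4500 ± 910 and 2384 ± 273 CPM. Pld4 stood at 1276 ± 77.6 and 1383 ± 31.5 CPM, and Klk1 at 1301 ± 370 and 1719 ± 139 CPM.

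Genes outside the rule also carried the pDC label. Every one of the 1284 cells had a UMI of Bst2, an interferon-inducible surface protein that is a standard pDC marker, 98.3% had one of Tcf4, 97.0% one of the gut-homing chemokine receptor Ccr9 and 86.3% one of Runx2. A UMI of the T cell genes Cd3d and Cd3g was seen in 3.27% of pDCs each, and one of the B cell gene Cd79a in 0.623%. After each cell was thinned to 2000 UMIs, Cd4 was detected in 35.0% ± 6.94 of spleen pDCs and 31.3% ± 0.577 of vascular pDCs. It was detected in 0 of 227 B reference cells (cells with Cd79a and Ms4a1 and without Cd3e or Siglech), which allows a share of up to 1.32% at this depth. Without thinning, Cd4 was seen in 1 B reference cell of spleen library 2 and 2 of spleen library 3. The T cell marker list had a UMI for 11 of its 12 genes, and its summed level was 47.0 to 131 CPM in spleen and 66.4 to 89.7 CPM in vascular pDCs. The lists for neutrophils, mast cells, smooth muscle, fibroblasts, adipocytes and platelets summed to 5.87 CPM or less in every library. The NK or ILC list summed to 5315 to 6381 CPM and the macrophage or monocyte list to 3501 to 6644 CPM. Of the 8 NK or ILC genes, Ncr1, Klrb1c, Gzma and Eomes had no UMI in pDCs, and 1 had enough UMIs to be tested. The macrophage or monocyte list includes Ly6c2, detected after thinning in 98.1% ± 1.77 of spleen and 96.6% ± 0.227 of vascular pDCs. The conventional dendritic cell list stood at 1761 to 2071 CPM and the plasma cell list at 425 to 1418 CPM. The endothelial list stood at 176 to 200 CPM and the B cell list at 32.6 to 258 CPM. The erythroid list reached 15.1 CPM. How much of these sums came from genes that pDCs share with those cells was not tested. Some marker UMIs of a library lay mostly in 1 pDC. In vascular library 1, 1 cell held 2956 of the 2995 Jchain UMIs. In spleen library 1, 1 cell held 53 of the 55 Lyz2 UMIs, and 1 cell held 24 of the 25 C1qa UMIs. Whether the Lyz2 and C1qa UMIs lay in the same cell, and where this RNA came from, was not tested.

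The pDC sums differed in depth more than the cells did. They held 168881 to 606606 UMIs in the spleen libraries, from 19 to 85 cells, and 2230179 to 4965430 UMIs in the vascular libraries, from 249 to 582 cells. One UMI was therefore worth 5.87 CPM in spleen library 1 and 0.206 CPM in vascular library 1. The median pDC held 7671 ± 567 UMIs in spleen and 8302 ± 186 UMIs in vascular libraries (exact two-sided permutation p = 0.20). The median share of mitochondrial UMIs was 3.24% ± 0.278 in spleen and 2.31% ± 0.130 in vascular pDCs (exact permutation p = 0.10), and its part in the gene differences below was not tested. Of the members, 63 had a barcode that was also a cell of another library, and 24 were called doublets.

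The pDCs made up a larger part of the vascular than of the spleen libraries. They were 0.823%, 0.906% and 0.511% of the cells of spleen libraries 1 to 3 and 6.72%, 5.02% and 4.68% of those of vascular libraries 1 to 3. No vascular library overlapped a spleen library, and the exact 95% binomial intervals (Clopper-Pearson, counting error only) reached 1.28% at most in spleen and 4.17% at least in vascular libraries. The mean share was 0.747% ± 0.208 in spleen and 5.47% ± 1.09 in vascular libraries, a ratio of 7.33. The exact two-sided permutation p was 0.10, the smallest that 3 libraries against 3 allow. Among cells without a Cd3e UMI, pDCs were 14.4% ± 1.71 in spleen and 65.2% ± 6.83 in vascular libraries. These are shares of cells that passed a sort for CD4+ T cells, and how many pDCs the tissues themselves held was not measured.

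**Figure D1:**
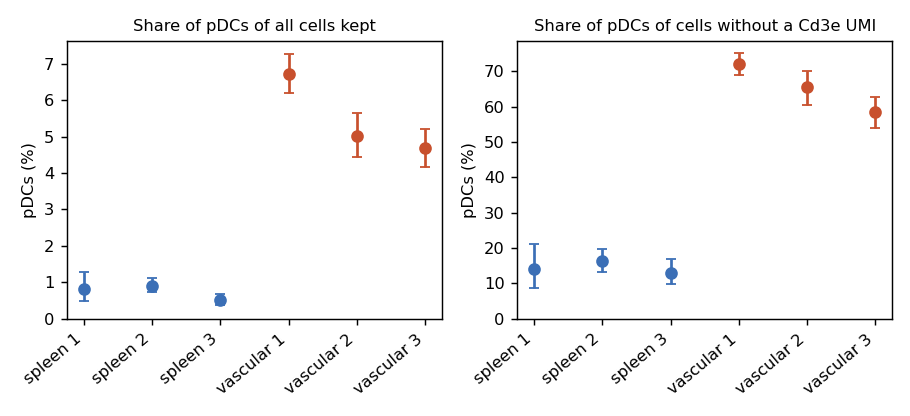
Share of pDCs in each library as a percent of all cells kept (left) and of cells without a Cd3e UMI (right), with exact 95% binomial intervals as bars. The 3 vascular libraries (orange) lie at 4.68% to 6.72% of all cells and the 3 spleen libraries (blue) at 0.511% to 0.906%.

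Across the transcriptome, vascular and spleen pDCs were compared by summing UMIs per library and testing with the quasi-likelihood test of edgeR, at an adjusted p (Benjamini-Hochberg over all genes tested) of 0.05. Of 7843 genes tested, 723 differed (9.22%), 452 of them higher (5.76%) and 271 lower (3.46%) in vascular pDCs. For 2189 genes (27.9%), the 3 vascular values lay all above or all below the 3 spleen values. The count of genes that differed was 348 without spleen library 2 and 452 without spleen library 3. With every sum thinned to that of the smallest library, it was 196 of 2623 genes tested.

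Among the factors that hold pDC identity, 37.5% of those tested passed the test, against 9.22% of all genes tested. Of 16 pDC transcription factor genes tested, 3 rose (Spib, Runx3 and Tcf12) and 3 fell (Bcl11a, Mycl and Ikzf1), with a median log2 difference of -0.19 against -0.005 over all genes tested. Without spleen library 3, 1 of them rose, and 1 fell without spleen library 2, without vascular library 1 or without vascular library 3. With the replicate number as a block, 3 rose and 1 fell. With sums thinned to the smallest library, 1 of 13 tested rose and 0 fell. Ikzf1 lost its call under 5 alternatives and Tcf12 under 3. Bcl11a, which pDCs need to develop, was at 428, 361 and 357 CPM in spleen and 242, 233 and 236 CPM in vascular pDCs. All vascular values lay below all spleen values, and the log2 difference was -0.66 ± 0.11 (SE; adjusted p = 0.00021, edgeR). Runx3, a Runt family factor, went the other way, from 70.3 ± 5.03 CPM to 138 ± 7.28 CPM. Tcf4, the master regulator of the lineage, had 813 ± 77.9 CPM in spleen and 683 ± 6.13 CPM in vascular pDCs, and the difference did not pass the test (adjusted p = 0.11, edgeR).

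Among 38 surface and secretory genes of pDCs tested, 6 rose and 2 fell, or 21.1% called against 9.22% of all genes tested. The number that fell was 1 without spleen library 3, without vascular library 1 or without vascular library 3. Ccr9 rose from 643 ± 38.0 to 893 ± 75.9 CPM, and Sla2, an adaptor that dampens receptor signalling, rose from 115 ± 10.0 to 275 ± 7.68 CPM. Dntt, the template-independent DNA polymerase of lymphoid progenitors, had 76.3, 123 and 131 CPM in spleen and 214, 203 and 239 CPM in vascular pDCs. All vascular values were above the spleen values, with a log2 difference of 0.90 ± 0.15 (adjusted p = 0.00021, edgeR). Slamf9, a SLAM family receptor, rose from 221 ± 15.2 to 340.4 ± 4.74 CPM. Fcrla, an Fc receptor-like protein, fell from 178 ± 46.3 to 74.1 ± 6.92 CPM. Bst2 stood at 5675 ± 165 and 5464 ± 153 CPM (adjusted p = 0.77), Atp1b1 at 827 ± 75.8 and 858 ± 17.0 CPM (adjusted p = 0.88), and Pacsin1 at 305 ± 59.3 and 341 ± 17.1 CPM (adjusted p = 0.71, edgeR).

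Heat shock genes were among the largest rises in vascular pDCs. Of 18 chaperone and heat shock genes tested, 10 rose and 0 fell, or 55.6% called against 9.22% of all genes tested. Their median log2 difference was 0.62. None was lower at an unadjusted p under 0.05 (edgeR) or by DESeq2, which also called 10 higher. Hspa1a, the stress-inducible HSP70 (chr17:34969190-34972156 in mm10), had 35.2, 3.36 and 34.8 CPM in spleen and 719, 712 and 599 CPM in vascular pDCs. The tissues did not overlap, and the log2 difference was 5.20 ± 0.27 (adjusted p = 1.6e-11, edgeR). Hspa1b, its near-identical neighbour, had 2 UMIs in all spleen pDCs and 1588 in vascular pDCs, a ratio of 91.5 with a 95% counting interval of 25.3 to 756. Reads that fit both copies may have been split or dropped, so the value of each copy alone is uncertain. Hspb1, which encodes the small heat shock protein HSP27, had 0 UMIs in spleen pDCs and 742 in vascular pDCs and was at least 28.5-fold higher, against a floor of 3 counts over the spleen libraries. Hspa1b and Hspb1 are among the 10 that rose and had enough UMIs to be tested only through the vascular libraries.

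The cytosolic co-chaperones and HSP90 rose by smaller amounts. Hsph1, an HSP110 nucleotide exchange factor, rose from 20.8 ± 7.68 to 127 ± 2.62 CPM, and Hsp90aa1, the inducible HSP90, from 296 ± 27.1 to 792 ± 45.4 CPM. Dnajb1, an HSP40 partner of HSP70, had 358, 136 and 186 CPM in spleen and 773, 674 and 658 CPM in vascular pDCs. The thinned share of cells with an Hspa1a UMI was 3.80% ± 3.31 in spleen and 31.9% ± 1.35 in vascular pDCs (exact two-sided permutation p = 0.10, adjusted over 34 genes 0.34). The same gene was at 1680 CPM in the T reference cells of the vascular libraries (cells with Cd3e and without Siglech) and at 7.98 CPM in those of spleen, so the difference was not particular to pDCs.

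The bases before the start of 4 heat shock genes that rose are shown. They hold a shorter core of the heat shock element, the sequence that heat shock factor binds. The 250 bases upstream of the RefSeq start (GRCm38.p6, the mm10 assembly) were searched on both strands, and 7 of the 10 genes that rose were in the promoter table. None of the 7 held the full heat shock element of 3 units, which 0.466% of all 32851 promoters hold. The shorter GAANNTTC, searched after that result was seen, was in 4 of the 7 and in 6.69% of all promoters. It is contained in the full element. Of the chaperone genes that were tested and did not pass, 2 of 7, Hspd1 and Hspe1, held the full element and with it the shorter one. The windows lie at chr17:34972157-34972406 (minus strand) for Hspa1a, chr17:34959239-34959488 (minus) for Hspa1b, chr4:40722218-40722467 (plus) for Dnaja1 and chr5:135887669-135887918 (plus) for Hspb1. They are printed 5′ to 3′ with each match in capitals.
Hspa1a: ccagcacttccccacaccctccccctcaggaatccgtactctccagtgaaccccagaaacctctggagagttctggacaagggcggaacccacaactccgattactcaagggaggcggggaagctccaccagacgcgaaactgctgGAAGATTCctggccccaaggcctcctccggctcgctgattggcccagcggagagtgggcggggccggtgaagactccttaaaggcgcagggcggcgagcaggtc
Hspa1b: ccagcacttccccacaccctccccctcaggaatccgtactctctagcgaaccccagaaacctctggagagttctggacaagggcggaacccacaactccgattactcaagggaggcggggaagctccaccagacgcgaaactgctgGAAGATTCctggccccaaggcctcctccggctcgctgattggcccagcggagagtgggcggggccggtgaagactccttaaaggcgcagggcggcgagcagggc
Dnaja1: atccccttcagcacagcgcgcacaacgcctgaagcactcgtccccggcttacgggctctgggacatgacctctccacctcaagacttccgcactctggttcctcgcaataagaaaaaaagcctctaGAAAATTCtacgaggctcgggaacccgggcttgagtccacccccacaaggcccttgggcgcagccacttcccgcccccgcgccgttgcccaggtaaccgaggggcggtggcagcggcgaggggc
Hspb1: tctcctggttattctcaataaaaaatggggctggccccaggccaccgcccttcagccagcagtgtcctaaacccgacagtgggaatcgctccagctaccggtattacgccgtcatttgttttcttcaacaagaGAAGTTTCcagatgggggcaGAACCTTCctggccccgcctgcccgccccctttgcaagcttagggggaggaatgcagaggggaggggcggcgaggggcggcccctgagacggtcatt
The Hspa1a and Hspa1b windows share 247 of 250 bases, and each has its match 104 bases before the start. A match is a run of letters and was not tested as a binding site.

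Immediate early genes, which cells switch on within minutes of a stimulus, rose more often than they fell. Of 26 tested, 13 rose and 4 fell, or 65.4% called against 9.22% of all genes tested. Their median log2 difference was 0.66. Nr4a1 (chr15:101254269-101274795), an orphan nuclear receptor induced by receptor signalling, had 70.4, 99.0 and 17.4 CPM in spleen and 645, 432 and 618 CPM in vascular pDCs. The lowest vascular library was above the highest spleen library, and the log2 difference was 3.06 ± 0.25 (adjusted p = 2e-08, edgeR). Its relative Nr4a3 had 2 spleen UMIs against 465, a ratio of 26.8 (95% counting interval 7.37 to 222). Nr4a2 had 0 against 207 and was at least 7.95-fold higher. Fosl2, which also rose, had 1 spleen UMI against 95. Nr4a2, Nr4a3 and Fosl2 are among the 13 and had enough UMIs to be tested only through the vascular libraries. Crem, a regulator of cAMP-responsive genes, rose from 9.74 ± 3.35 to 103 ± 17.9 CPM, and Rgs1, a brake on chemokine receptor signalling, from 296 ± 119 to 683 ± 70.2 CPM.

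Not every gene of that list rose. Egr1, Klf2, Klf6 and Ppp1r15a fell. Klf2, a factor of quiescence and of lymphocyte circulation, had 1514, 1868 and 1619 CPM in spleen and 1138, 1058 and 995.5 CPM in vascular pDCs, without overlap (log2 difference -0.66 ± 0.10, adjusted p = 8.8e-05, edgeR). Fos was high in both, at 1476 ± 136 and 1403 ± 187 CPM (adjusted p = 0.71, edgeR). Without vascular library 1, 8 genes of the list rose, and without spleen library 2, 1 fell.

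**Figure D2:**
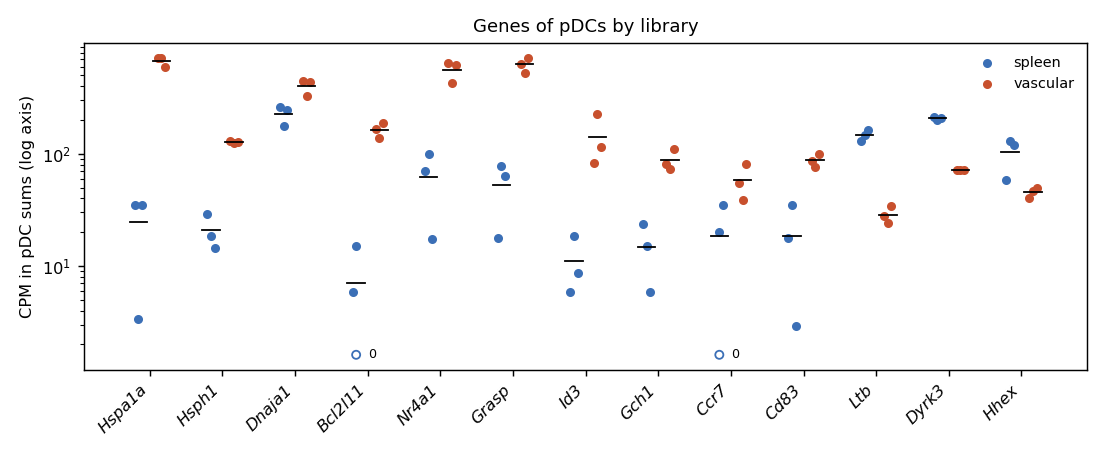
Level of 13 genes in the pDC sums of each library in CPM on a log axis, spleen in blue and vascular in orange, with black bars at the means and open circles for libraries at 0. The groups do not overlap for any gene shown; Hspa1a has the widest gap, and Ltb, Dyrk3 and Hhex are lower in vascular pDCs.

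Other genes with large rises were not in these lists. Bcl2l11 (chr2:128126038-128162547), which encodes the pro-apoptotic BH3 protein BIM, had 5.87, 15.1 and 0 CPM in spleen and 165, 138 and 188 CPM in vascular pDCs. Its log2 difference was 4.19 ± 0.34 (adjusted p = 2e-08, edgeR), with no overlap. Grasp, a scaffold protein of membrane trafficking, had 17.6, 77.2 and 63.8 CPM in spleen and 630, 528 and 722 CPM in vascular pDCs. Id3, an inhibitor of E proteins such as Tcf4, had 5.87, 18.5 and 8.70 CPM in spleen and 82.2, 224 and 114 CPM in vascular pDCs. Both genes were separated by tissue in all libraries, and Id3 varied most within the vascular group (SD 74.6 CPM). Gch1, the first enzyme of tetrahydrobiopterin synthesis, rose from 14.8 ± 8.84 to 88.5 ± 20.1 CPM.

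Among survival and apoptosis genes, 26.7% of those tested were called, against 9.22% of all genes tested. Of 15 tested, 4 rose and 0 fell. Next to Bcl2l11 these were Gadd45b, a stress-response gene (74.5 ± 18.5 to 286 ± 35.0 CPM), Cdkn1a, which encodes the cell cycle inhibitor p21 (3.36 ± 5.81 to 59.7 ± 12.1 CPM), and Pmaip1, which encodes NOXA (116 ± 24.8 to 181 ± 16.5 CPM). The call of Pmaip1 was lost without spleen library 3, and 1 gene of the list fell without vascular library 2. At an unadjusted p under 0.05, 4 genes of the list were lower (edgeR), and DESeq2 called 0 lower. None of 7 proliferation genes tested passed the edgeR test in either direction, 0 did so at an unadjusted p under 0.05, and DESeq2 called 0.

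Genes of the unfolded protein response, which enlarges and protects the endoplasmic reticulum in secretory cells, rose in part. Of 24 tested, 7 rose and 0 fell, or 29.2% called against 9.22% of all genes tested. Their median log2 difference was 0.16. None was lower at an unadjusted p under 0.05 (edgeR) or by DESeq2. Hspa5, the chaperone BiP, had 681, 520.2 and 543 CPM in spleen and 1170, 1053 and 1078 CPM in vascular pDCs, without overlap (log2 difference 0.96 ± 0.11, adjusted p = 2.2e-06, edgeR). Xbp1, a driver of secretory capacity, rose from 419 ± 71.0 to 721 ± 50.9 CPM, and Ddit3, the stress factor CHOP, from 31.4 ± 20.1 to 122 ± 2.35 CPM. Without spleen library 2, 4 genes of the list rose.

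**Figure D3:**
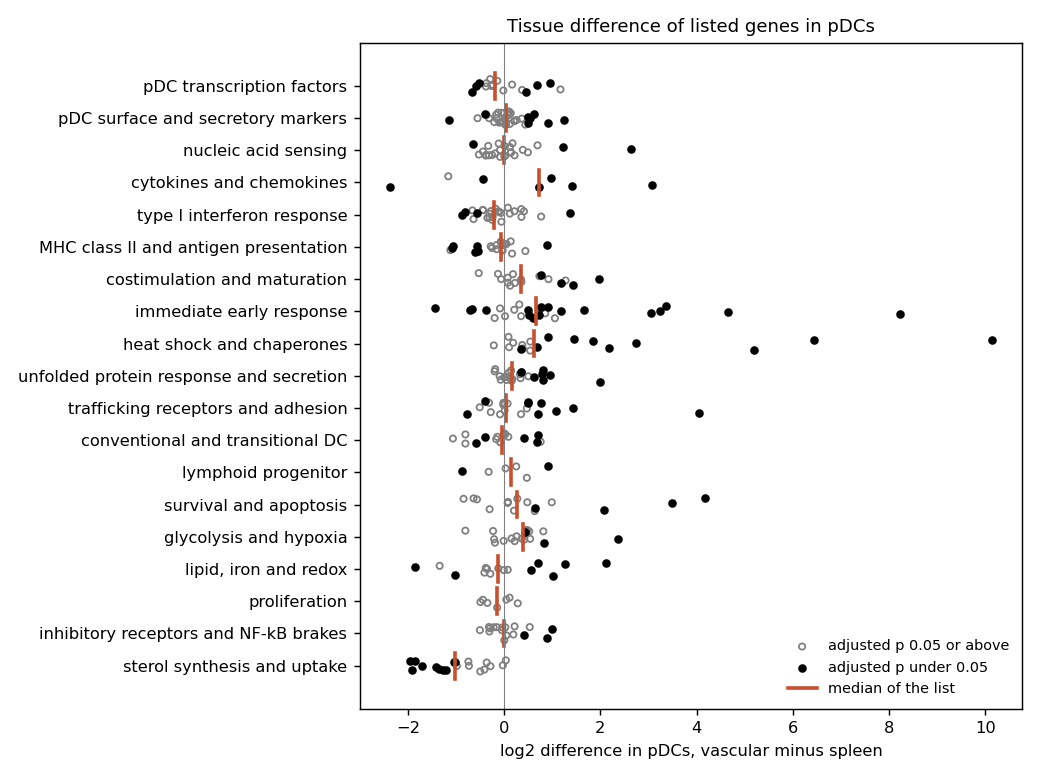
Log2 difference (vascular minus spleen) in pDCs for each tested gene of 19 lists, filled where the adjusted p was under 0.05, with the median of each list as an orange bar. Heat shock genes lie mostly to the right and sterol synthesis genes to the left of 0; the points of Hspb1 and Nr4a2, with 0 spleen UMIs, are fitted values that depend on the prior count, and the medians are the same with these genes at their bounds.

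Cytokine genes moved in both directions. Of 35 listed, 8 had enough UMIs to be tested, and Tnf, Areg, Ccl3 and Ccl4 rose while Ltb and Tgfb1 fell. That is 75.0% called, against 9.22% of all genes tested. Tnf had 5.87, 10.1 and 5.80 CPM in spleen and 83.7, 53.0 and 62.5 CPM in vascular pDCs, without overlap (log2 difference 3.07 ± 0.39, adjusted p = 9.8e-06, edgeR). Ccl4, an inflammatory chemokine, was abundant in both tissues, and its libraries overlapped at 1230 to 2547 CPM in spleen and 2335 to 3322 CPM in vascular pDCs. Its call was lost by DESeq2 and without spleen library 3 or vascular library 1. That of Areg was lost without spleen library 2 and without the pDCs that held a Cd3d or Cd3g UMI. DESeq2 called 2 genes of the list higher and 2 lower. Without spleen library 2, 2 genes of the list rose, and 1 fell without spleen library 2 or 3 or without vascular library 2 or 3. Ltb, the membrane lymphotoxin subunit that shapes lymphoid tissue, had 129, 148 and 163 CPM in spleen and 27.8, 24.0 and 34.5 CPM in vascular pDCs. That was the largest fall among genes with a mean of at least 50 CPM (log2 difference -2.37 ± 0.17, adjusted p = 4.8e-09, edgeR). T reference cells held 917 CPM of Ltb in spleen and 640 CPM in vascular libraries. The T cell genes Cd3d and Cd3g stood in pDCs at 0.885% and 0.557% of their T cell level in spleen. In vascular libraries they stood at 0.757% and 0.715%. Cd28 stood at 13.4% in spleen and 4.35% in vascular libraries. Bcl11b stood at 3.56% and 0.650%, Trat1 at 1.95% and 0.254%, Cd247 at 0.846% and 0.602%, and Lat at 2.06% and 3.02%. Bcl11b and Trat1 had 2 or fewer UMIs in each spleen library. The rule, with no Cd3e UMI, also selects against cells with Cd3d or Cd3g. The part of T cell RNA in the Ltb values was not tested.

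The interferon genes themselves were almost silent. Of 20 type I and III interferon genes listed, 8 had a UMI in a pDC, 23 UMIs in all. Ifnb1 accounted for 6 and Ifnl2 for 9 of them, all in vascular pDCs, whose sums were deeper. The vascular sums held 2230179 to 4965430 UMIs against 168881 to 606606 in spleen, so no difference can be read from this. In vascular library 3, 1 cell held all 4 Ifnb1 UMIs. The Ifna genes are near-identical copies, so reads may have been dropped or split among them. Of 26 interferon response genes tested, 1 rose (Rsad2) and 3 fell (Isg15, Slfn8 and Irgm1), with a median log2 difference of -0.21. That is 15.4% called, against 9.22% of all genes tested. Isg15, a ubiquitin-like protein, had 223, 210 and 238 CPM in spleen and 170.4, 155 and 124 CPM in vascular pDCs, without overlap (log2 difference -0.56 ± 0.14, adjusted p = 0.012, edgeR). The call of Isg15 was lost without spleen library 2, without spleen library 3 and without vascular library 3. Slfn8 lost its call without spleen library 2. Rsad2 lost its call under 6 alternatives. These were DESeq2, the replicate number as a block, leaving out pDCs with a Cd3d or Cd3g UMI, and leaving out spleen library 2, vascular library 1 or vascular library 3.

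Among 25 genes of nucleic acid sensing tested, 2 rose and 1 fell, or 12.0% called against 9.22% of all genes tested. Tlr9, the endosomal DNA receptor, fell from 68.2 ± 8.87 to 41.6 ± 5.41 CPM (adjusted p = 0.046, edgeR), a call lost under 7 alternatives, among them the leaving out of any 1 library except vascular library 3. DESeq2 called 0 genes of this list. Tlr7, the endosomal RNA receptor, had 166 ± 51.6 CPM in spleen and 124 ± 11.1 CPM in vascular pDCs (adjusted p = 0.21). Slc15a4, a transporter that Tlr7 and Tlr9 signalling needs, had 163 ± 31.4 and 216 ± 40.1 CPM (adjusted p = 0.055, edgeR). Cd14, a co-receptor of Toll-like receptors, had 2 spleen UMIs and 113 vascular UMIs, a ratio of 6.51 (95% counting interval 1.76 to 54.4). Cd14 had enough UMIs to be tested only through the vascular libraries. Its call was lost by DESeq2, with the replicate number as a block, without spleen library 2 and without spleen library 3. Pld3, which also rose, lost its call under 9 alternatives. Without spleen library 2, spleen library 3 or vascular library 1, 0 genes of the list rose, and 1 rose without vascular library 3.

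Of 17 costimulation and maturation genes tested, 4 rose and 0 fell by edgeR and by DESeq2, and 1 was lower at an unadjusted p under 0.05. By edgeR, 23.5% were called, against 9.22% of all genes tested. Cd83, a surface marker of mature dendritic cells, had 17.6, 35.2 and 2.90 CPM in spleen and 86.3, 76.0 and 100.1 CPM in vascular pDCs, without overlap (log2 difference 1.97 ± 0.31, adjusted p = 0.00014, edgeR). Ccr7, the receptor that leads dendritic cells to lymph nodes, had 0, 20.1 and 34.8 CPM in spleen and 54.9, 38.7 and 81.7 CPM in vascular pDCs. At equal depth, Cd83 was detected in 2.54% ± 2.64 of spleen and 10.2% ± 1.06 of vascular pDCs, and Ccr7 in 2.54% ± 2.21 and 6.86% ± 0.725. Cd86 was detected in 1.07% ± 1.02 and 1.71% ± 0.922 (exact permutation p = 0.50). Of the 34 genes compared this way, 10 had no overlap between spleen and vascular libraries. The adjusted p of the exact permutation test was 0.34 at the least. By level in CPM, 27.9% of all 7843 genes tested had no overlap. Among the 10, Cd40, Cd28 and Fos were lower in vascular pDCs. Cd40 was detected in 2.83% ± 2.15 of spleen and 0.505% ± 0.500 of vascular pDCs, with 1 cell in each spleen library. These differences depended on the depth. At 1000 UMIs per cell, Cd40 was detected in 0% of spleen and 0.360% ± 0.0368 of vascular pDCs. Cd28 and Fos overlapped at 1000 and at 4000 UMIs, with Cd28 at 5.73% in spleen and 6.92% in vascular pDCs at 4000. Without thinning, both were again lower with no overlap, while Cd40 overlapped. Areg overlapped at 1000 UMIs. Ccr7 lost its call without spleen library 2 and without vascular library 3.

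Antigen presentation genes fell more often than they rose. Of 22 MHC class II and presentation genes tested, 5 fell and 1 rose, or 27.3% called against 9.22% of all genes tested. Their median log2 difference was -0.07. H2-DMb2, a chain of the peptide loader H2-DM, fell from 158 ± 54.0 to 79.1 ± 7.92 CPM, and H2-Oa, a chain of its inhibitor, from 248 ± 43.5 to 167 ± 11.4 CPM, a call lost without spleen library 3. Ciita, the master regulator of MHC class II genes, had 29.3, 42.0 and 34.8 CPM in spleen and 18.9, 18.0 and 16.9 CPM in vascular pDCs. Cd74, the invariant chain, was at 14910 ± 2425 and 13370 ± 494 CPM (adjusted p = 0.39, edgeR).

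Among genes of conventional and transitional dendritic cells, 31.2% of those tested were called, against 9.22% of all genes tested. The shares were 33.3% for lymphoid progenitor genes and 17.6% for inhibitory receptors and brakes of NF-kB. Of 16 genes of conventional and transitional dendritic cells tested, Itgax, Clec9a and Cd209a rose, and Ly6c2 and Mycl fell. Cd209a, a lectin of the DC-SIGN family, had 117, 136 and 142 CPM in spleen and 198, 219 and 239 CPM in vascular pDCs, without overlap (log2 difference 0.69 ± 0.14, adjusted p = 0.0015, edgeR). When spleen library 1, spleen library 3, vascular library 1 or vascular library 3 was left out, 1 gene of the list rose, and 0 fell without spleen library 3 or vascular library 1. Of 6 lymphoid progenitor genes tested, Dntt rose and Notch1 fell, the latter losing its call when any of those 4 libraries was left out. Of 17 inhibitory receptor genes and brakes of NF-kB, 3 rose and 0 fell by edgeR, 1 was lower at an unadjusted p under 0.05, and DESeq2 called 2 higher and 0 lower. Tnfaip3, a deubiquitinase that ends NF-kB signalling, had 129, 78.9 and 72.5 CPM in spleen and 181, 134 and 188 CPM in vascular pDCs. Tgfbr2, a TGF-beta receptor chain, had 47.0, 58.7 and 55.1 CPM in spleen and 108, 99.0 and 101 CPM in vascular pDCs. Both were separated by tissue, while Nfkbia, the third, lost its call without any 1 library except vascular library 2.

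Trafficking receptors rose more often than they fell, with 7 of 20 tested higher and 2 lower. Without spleen library 2 or without vascular library 3, 4 rose, and 1 fell whichever library was left out. Cmklr1, the chemerin receptor that recruits pDCs, had 1 spleen UMI and 154 vascular UMIs, a ratio of 17.7 (95% counting interval 3.14 to 705). It is among the 7 that rose and had enough UMIs to be tested only through the vascular libraries. Selplg, the P-selectin ligand, rose from 881 ± 102 to 1245 ± 61.3 CPM. Itgb2, the shared chain of the leukocyte integrins, had 176, 191 and 134 CPM in spleen and 111, 84.3 and 97.0 CPM in vascular pDCs, without overlap (log2 difference -0.78 ± 0.15, adjusted p = 0.0016, edgeR). Its call was lost without spleen library 2.

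In metabolism, the glucose transporter Slc2a1 rose from 10.4 ± 4.87 to 45.9 ± 9.87 CPM. It was 1 of 3 genes that rose among 18 of glycolysis and hypoxia, or 16.7% called against 9.22% of all genes tested. The number that rose was 1 without spleen library 3 or without vascular library 3. The lipid, iron and redox list held 5 genes that rose and 2 that fell of 15 tested, or 46.7% called. In that list, 4 fell without spleen library 1 or without spleen library 3. Abcg1, which exports cholesterol from cells, had 52.8, 11.8 and 26.1 CPM in spleen and 104, 104 and 86.3 CPM in vascular pDCs, without overlap (log2 difference 2.11 ± 0.28, adjusted p = 1.7e-05, edgeR). Nfe2l2, the antioxidant regulator NRF2, rose from 68.4 ± 17.3 to 142 ± 9.22 CPM.

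Genes of cholesterol synthesis fell together. The list was added after Fdps, Msmo1, Idi1 and Srebf2 had been seen to fall, so its count describes the pattern and is not independent evidence of it. Of 19 genes tested, 10 fell and 0 rose, or 52.6% called against 9.22% of all genes tested. In the list, 1 gene had a log2 difference above 0. None was higher at an unadjusted p under 0.05 (edgeR) or by DESeq2. The median was -1.01. The genes that fell ran along the pathway: Hmgcs1, an early step, Mvk, Mvd and Idi1, the mevalonate steps, Fdps, Fdft1 and Sqle, the steps to squalene and its epoxide, Cyp51 and Msmo1, later steps, and Srebf2, which switches the pathway on.

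Fdps, which makes farnesyl diphosphate, had 252, 173 and 218 CPM in spleen and 62.3, 38.7 and 49.9 CPM in vascular pDCs. The tissues did not overlap, and the log2 difference was -1.96 ± 0.18 (adjusted p = 6.3e-08, edgeR). Hmgcs1 had 52.8, 90.6 and 60.9 CPM in spleen and 21.2, 13.4 and 23.0 CPM in vascular pDCs (log2 difference -1.92 ± 0.25, adjusted p = 1.1e-05, edgeR). Msmo1 fell by 1.71 ± 0.20 on the log2 scale. Insig1, which holds the pathway back, had 75.7 ± 49.7 and 68.6 ± 7.34 CPM (adjusted p = 0.29, edgeR). Without spleen library 2, the list held 7 genes that fell, and Fdft1, Mvd, Mvk and Cyp51 were not among them. Cyp51 also lost its call without spleen library 3.

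The promoter of Hmgcs1 is shown as the only one of the 7 found in the table, of the 10 genes that fell, with the letters TCACNCCAC of a sterol regulatory element in its 250 upstream bases. Of all promoters, 1.05% hold these letters on either strand. The window is chr13:119690101-119690350 on the plus strand, and the match, in capitals, begins 137 bases before the start.
Hmgcs1: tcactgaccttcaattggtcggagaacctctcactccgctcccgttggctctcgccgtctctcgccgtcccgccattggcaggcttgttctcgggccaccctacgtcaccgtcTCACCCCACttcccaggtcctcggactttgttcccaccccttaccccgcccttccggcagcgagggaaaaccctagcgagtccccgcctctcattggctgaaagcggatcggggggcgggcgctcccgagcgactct

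**Figure D4:**
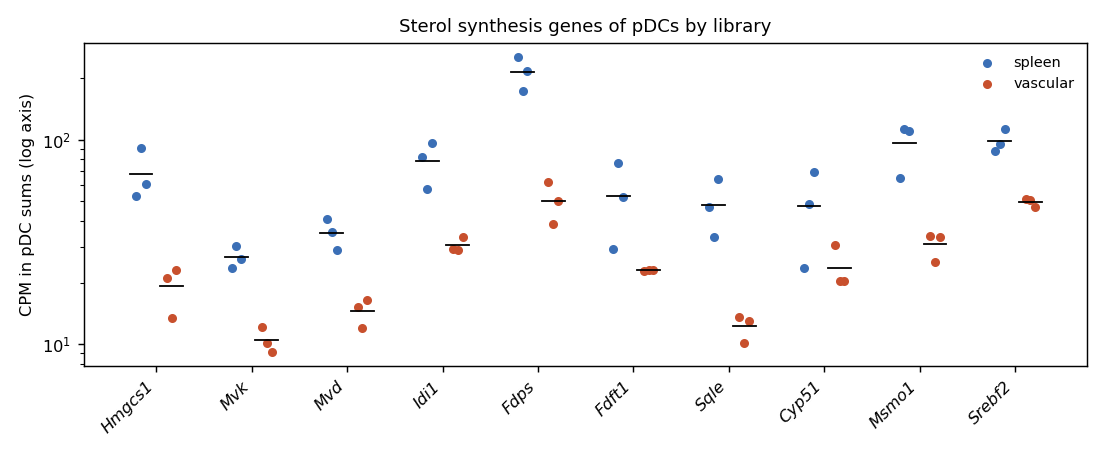
Level of the 10 cholesterol synthesis genes that fell, in CPM on a log axis, by library (spleen blue, vascular orange, black bars at the means). Every gene except Cyp51 is lower in all 3 vascular libraries than in all 3 spleen libraries.

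Other large falls had no list of their own. Dyrk3, a kinase that dissolves stress granules, had 211, 199.7 and 209 CPM in spleen and 72.2, 72.3 and 71.3 CPM in vascular pDCs (log2 difference -1.51 ± 0.13, adjusted p = 2.3e-08, edgeR). The spread within each tissue was small against the gap between them. Hhex, a homeobox factor of blood cell development, fell from 103 ± 38.7 to 45.6 ± 4.46 CPM, and Il11ra1, a cytokine receptor chain, from 105 ± 13.3 to 31.0 ± 4.06 CPM.

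Each library also held the T cells that the sort was made for, so the tissue difference of pDCs was compared with that of T reference cells by an interaction test with library as a block. In T reference cells, 4995 of 12273 genes tested differed between the tissues (40.7%). Of 704 genes called in pDCs and tested in T reference cells, 431 were called the same way there and 46 the other way. The interaction passed for 927 of 11602 genes (7.99%), 591 higher (5.09%) and 336 lower (2.9%), but this split rests on the scaling: with RLE size factors it was 323 higher and 429 lower. The median interaction was 0.148 with the main scaling (TMM) and 0.0221 with RLE, so values below are relative to that median. Each adjusted p printed with such a value is for the interaction before that shift, with TMM. Only the 659 genes called under both scalings are drawn on. The count with the main scaling was 498 without spleen library 2 and 549 without spleen library 3.

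Several genes differed more in pDCs than in T cells. Bcl2l11 went from 22.4 to 59.5 CPM in T reference cells, and its interaction was 2.76 ± 0.43 on the log2 scale (adjusted p = 6.6e-06, edgeR). Id3 had 49.2 and 53.0 CPM in T reference cells, with an interaction of 3.28 ± 0.44. Grasp had 9.60 and 24.1 CPM there, with an interaction of 2.02 ± 0.20. Ccr7 went opposite ways: it fell in T reference cells from 499 to 331 CPM and rose in pDCs, with an interaction of 2.11 ± 0.35 (adjusted p = 1.6e-05, edgeR).

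Other genes differed less, or the other way, in pDCs. Hspa1a rose in both classes, and its interaction was -2.60 ± 0.44 (adjusted p = 0.00013, edgeR). Areg, an epidermal growth factor family ligand, reached 233 CPM in vascular T reference cells against 42.4 CPM in pDCs, with an interaction of -2.46 ± 0.41. Isg15 rose in T reference cells from 217 to 307 CPM and fell in pDCs, with an interaction of -1.06 ± 0.13. Nfkbia, an inhibitor of NF-kB, reached 2002 CPM in vascular T reference cells and 669 CPM in pDCs, with an interaction of -1.14 ± 0.13. For Hmgcs1 the T reference cells had 16.8 and 13.8 CPM, and the interaction was -1.61 ± 0.26 (adjusted p = 0.00013, edgeR).

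Some genes with an interaction did not pass the pDC test. Clec10a, a lectin of dendritic cells and macrophages, had 251 ± 59.2 and 241 ± 30.7 CPM in pDCs and 0.0230 and 0.544 CPM in T reference cells. Runx2 had 347 ± 52.8 and 307 ± 23.5 CPM in pDCs and 6.46 and 38.7 CPM in T reference cells. Neither passed the pDC test (adjusted p = 0.95 and 0.52, edgeR), which does not show that their levels in pDCs were equal. The T reference cells of vascular libraries came from libraries with more pDCs, and the part of free pDC RNA in such values was not tested. Against B reference cells, which numbered 228, the interaction passed for 33 of 5597 genes (0.59%), 21 of them higher (0.375%) and 12 lower (0.214%).

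**Figure D5:**
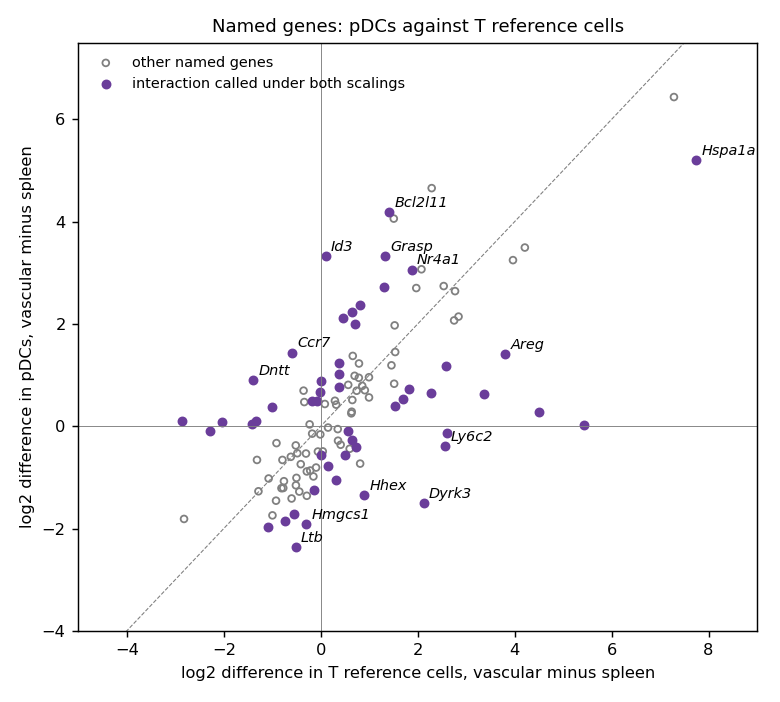
Log2 difference (vascular minus spleen) of 120 named genes in T reference cells (horizontal axis) and in pDCs (vertical axis), filled for the 51 genes whose interaction passed under both scalings; the dashed line marks equal differences, and Hspb1, with 0 spleen UMIs in pDCs, is left out. Bcl2l11, Id3 and Grasp lie above the line, and Dyrk3, Ly6c2 and Areg below it.

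Among vascular pDCs, cells differed most in a few genes. Variation was measured as the Fano factor, the variance of a gene's UMIs over its mean, at 2000 UMIs per cell. Its median over 9486 genes was 0.997, about the value of counting noise alone. After AY036118 and Gm42418, which catch reads of ribosomal RNA, the highest mean factor was that of Ccl4 (12.1 in vascular and 6.39 in spleen libraries). Cells of vascular library 1 held up to 64 Ccl4 UMIs, while 74.7% of them held any. Cd74 (6.20), Jun (6.04), Hspa1a (5.22), Hspb1 (4.78), Fth1 (4.54), Klf2 (3.98), Fos (3.98) and Rgs1 (3.95) followed. Genes of the rule were left out of this order, among them Ly6d (5.41) and Klk1 (4.64). In spleen libraries the factor was 9.41 for Cd74, above its vascular value. It was 4.42 for Jun, 2.48 for Hspa1a, 2.40 for Fth1, 3.12 for Klf2, 2.45 for Fos and 2.05 for Rgs1, and Hspb1 had no UMI there. The order was not adjusted for the mean level of a gene, and Cd74 had 27.2, 25.3 and 26.0 UMIs per cell in vascular libraries 1 to 3. Hspb1 was confined at this depth to 3.09%, 9.24% and 3.33% of the cells of the vascular libraries. No UMI of Gzmb, Prf1 or Xcr1 was seen at this depth. This allows a share of up to 0.234% of 1284 pDCs with a UMI at this depth, by counting over the pooled cells alone. Without thinning, Gzmb was seen in 2 cells each of vascular libraries 1 and 3. Xcr1 was then seen in 1 cell of vascular library 3 and Prf1 in 0.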

How the data were processed

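In the deposited files each value is a raw UMI count of 1 gene in 1 barcode, in whole numbers, per the file headers. Per the submitters' processing notes, the tools were FastQC 0.11.8, Cell Ranger 2.2.0, STAR 2.5.1b and Seurat, with build mm10. Of 41315 barcodes, the 41303 that had 300 genes or more and no more than 10% of UMIs from mitochondrial genes entered the work. Doublets were called by scrublet in scanpy 1.11.5 at 0.8% per 1000 barcodes and left out only as an alternative. The pDC counts were summed per library and tested with edgeR 4.0.16 in R 4.3.3 (TMM, filterByExpr, tissue as the only term). DESeq2 1.42.0 was an alternative. The 7 genes of the rule were not tested. The SE is the log2 difference over the square root of F. CPM use TMM-scaled library sizes. The edgeR tests were also run on simulated counts with known changes, drawn with the means, library sizes and dispersions of the real pDC sums. The outcome is not given here.

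The members and lists were chosen with earlier results of these data known. Named were the 12 largest rises and falls with non-overlapping libraries and a mean of at least 50 CPM, up to 4 genes of each of 18 lists by p, the pDC markers, the 6 largest interactions in each direction and the 12 most variable genes. The sterol list, some further list members and the leaving out of shared barcodes were chosen after seeing the data. Some items are not reported here and were left out of the lists. Gene places are from GENCODE M21, promoters from RefSeq (GRCm38.p6).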

Additional observations from a re-analysis of the deposited data

Results flagged for a closer look

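The genes below were called in pDCs, and their tissue difference there differed from that of T reference cells by the edgeR interaction test (adjusted p under 0.05 with both scalings). Numbers in brackets are the interaction on the log2 scale, pDCs minus T reference cells, relative to the median gene. Among genes that rose in pDCs, the interaction was above 0 for Bcl2l11 (2.76), Id3 (3.28), Grasp (2.02), Nr4a1 (1.13), Fam46c (1.59), Vps37b (1.34), Ddit3 (1.29), Slc2a1 (1.51) and Abcg1 (1.64). It was smaller but above 0 for Sla2 (0.90), Ccr9 (0.58), Tcf12 (0.65), Tgfbr2 (0.90), Nfe2l2 (0.64) and Cd69 (0.47). Called opposite ways, higher in vascular pDCs and lower in vascular T reference cells, were Ccr7 (2.11) and Dntt (2.34). Dntt was at 2.13 and 0.817 CPM in T reference cells.

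Among genes that fell in pDCs, interactions below 0 were those of Hmgcs1 (-1.61), Cyp51 (-1.42), Msmo1 (-1.13), Sqle (-1.13) and Fdps (-0.89), all of cholesterol synthesis. The interactions of Mvk, Mvd, Idi1, Fdft1 and Srebf2, which also fell, did not pass under both scalings. In T reference cells, 8 of the 19 tested genes of that list were lower and 5 higher. Interactions were also below 0 for Ltb (-1.80), Bloc1s1 (-1.10), Itgb2 (-0.93) and Ifi30 (-0.54). Lower in vascular pDCs with a T reference value above 0 were Dyrk3 (-3.62), Ly6c2 (-2.82), Hhex (-2.19) and Isg15 (-1.06). Dyrk3 was at 0.841 and 3.61 CPM in T reference cells and Hhex at 0.478 and 0.986 CPM, levels at which the part of free pDC RNA was not tested. Ly6c2 was at 76.3 and 454 CPM there, may share reads with its near-identical neighbour Ly6c1, and lost its pDC call under 6 alternatives. Genes that rose in both classes with an interaction below 0 were Hspa1a (-2.60), Areg (-2.46), Slamf9 (-2.71), Pmaip1 (-1.61), Rgs1 (-1.35), Ccl4 (-1.34) and Nfkbia (-1.14). Slamf9 was at 0.209 and 1.63 CPM in T reference cells.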

How the results depend on the processing

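Of 129 named genes with a test, 91 were called, and 54 of these kept their call under every alternative that tested them; no named gene changed sign with a call. The 723 genes called in pDCs became 196 (138 higher, 58 lower, 2623 tested) with the sums thinned to the smallest library, where 184 of 467 genes still tested kept their call and sign and 3 changed sign, and fewer genes were tested. Leaving out 1 library gave 348 (without spleen library 2) to 808 genes (without spleen library 1). DESeq2 gave 523, no filter 910, and leaving out shared barcodes, chosen after seeing the data, 717. The 927 interaction genes became 195 with T reference cells drawn to the number of pDCs (62 higher, 133 lower, 8102 tested) and ran from 498 to 1156 when 1 library was left out; the cause was not tested. No filter gave 383 higher and 412 lower. The share difference of 4.73 percentage points ran from 4.10 to 5.12 without 1 library. Of the 34 genes compared by share, 10 did not overlap, and 11 to 16 when 1 library was left out, where fewer libraries can overlap; 15 did not overlap without thinning. Clec9a, Nfkbia, Ddit4, Itgax and Pld3 lost their calls under 9 or more alternatives. With the replicate number as a block, 544 genes were called, 536 of them among the 723. Same-numbered libraries had correlations of 0.0029, -0.0515 and 0.0328 in their deviations, so the numbers gave no sign of pairing. No alternative was run for the interaction with B reference cells. Spleen library 1, with 19 pDCs, limits what can be seen of genes under about 5.87 CPM.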
